A study of Mus musculus with 2 samples.

Results

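The chemokine genes Ccl2, Ccl3, Ccl4, Ccl6, Ccl9, Ccl12, Cxcl2, Cxcl10 and Cxcl16 were followed in mouse microglia, by the gene names in the count matrix. They are 9 of 32285 genes measured. Microglia, macrophages that live in the brain itself, were sorted as CD11b+ CD45+ Ly6G- CD206- cells from perfused brains of 12-week-old mice heterozygous for Cx3cr1CreERT2(Litt). In these mice a tamoxifen-inducible Cre is expressed from the Cx3cr1 locus, so every group carried the allele. The mice were given oil (hashtags Oil1 to Oil5) or tamoxifen (TAM, hashtags TAM1 to TAM5) under a 4-week treatment. All 10 hashtags were pooled into 1 droplet run with 3′ chemistry. Tamoxifen-treated mice without the Cre were not analysed here, so the drug and Cre activity cannot be told apart. Whether each hashtag is its own mouse is not stated in the labels, and p-values then cover the variation from hashtag to hashtag alone, possibly technical.

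Chemokines are small secreted proteins that guide leukocytes through G protein-coupled receptors. Microglia release them early in injury and infection, and many chemokine genes are transcribed within minutes to hours of a stimulus, through NF-kB, AP-1 or interferon-activated factors. Ccl3 and Ccl4 draw monocytes and T cells. Ccl2 and Ccl12 draw Ccr2-bearing monocytes, Ccl6 and Ccl9 act on Ccr1, and Cxcl2 draws neutrophils through Cxcr2. Cxcl10 is induced by interferon and acts on Cxcr3, and Cxcl16 is made as a membrane-anchored ligand of Cxcr6.

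The genes lie in few places of the GRCm38 assembly. Ccl3 (chr11:83647844-83649355, minus strand) and Ccl4 (chr11:83662584-83664683, plus strand) are neighbours, as are Ccl9 (chr11:83572919-83578636) and Ccl6 (chr11:83587882-83593087), both on the minus strand. Ccl2 (chr11:82035571-82037453) and Ccl12 (chr11:82101845-82103400) lie on the plus strand, and Cxcl16 (chr11:70453983-70459984) on the minus strand. Cxcl2 (chr5:90903871-90905938, plus strand) and Cxcl10 (chr5:92346638-92348889, minus strand) are on another chromosome. In the annotation 4 of the 9 overlap a gene of the opposite strand. Ccl2 lies whole within Gm17268, Ccl6 within E230016K23Rik and Cxcl10 within Art3, and Cxcl16 shares 552 bases with Zmynd15. How the counting handled such reads is not given in the sources used here, so counts of these 4 genes may hold reads of the partner.

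RefSeq promoter sequences (GRCm38.p6) were at hand for 6 of the 9 genes. Those of Cxcl10, Ccl12 and Ccl3 are shown, since Cxcl10 and Ccl12 were highest in the same cluster of cells and Ccl3 in another. Each is the 250 bases before the start site, 5′ to 3′ on the gene's strand, with motif matches in capitals.
Cxcl10 (chr5:92348890-92349139, minus strand): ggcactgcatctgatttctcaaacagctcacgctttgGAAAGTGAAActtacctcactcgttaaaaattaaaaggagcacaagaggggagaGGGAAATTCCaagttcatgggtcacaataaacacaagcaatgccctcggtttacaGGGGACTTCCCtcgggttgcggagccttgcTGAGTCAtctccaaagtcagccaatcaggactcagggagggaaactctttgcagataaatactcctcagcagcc
Ccl12 (chr11:82101595-82101844, plus strand): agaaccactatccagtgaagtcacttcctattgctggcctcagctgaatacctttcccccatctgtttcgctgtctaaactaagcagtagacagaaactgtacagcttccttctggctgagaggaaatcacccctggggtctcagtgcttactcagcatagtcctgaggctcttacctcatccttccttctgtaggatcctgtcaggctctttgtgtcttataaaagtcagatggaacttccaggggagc
Ccl3 (chr11:83649379-83649628, minus strand): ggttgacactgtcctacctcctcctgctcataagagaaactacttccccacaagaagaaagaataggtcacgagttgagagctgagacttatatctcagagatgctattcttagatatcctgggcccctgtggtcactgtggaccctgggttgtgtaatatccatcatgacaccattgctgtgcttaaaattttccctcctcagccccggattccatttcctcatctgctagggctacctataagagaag
The motifs searched on both strands were AP-1 (TGANTCA), the core of the interferon-stimulated response element, the NF-kB consensus and an ETS/PU.1 motif. The Cxcl10 window held the first 3 kinds, with the interferon element 213 to 204 bases before the start. NF-kB matches lay at 159 to 150 bases and, overlapping each other, at 104 to 94 bases, and AP-1 at 74 to 68 bases. The Ccl12 and Ccl3 windows held none of these letters. Of the other windows, that of Cxcl2 held the NF-kB consensus and that of Ccl9 AP-1 and NF-kB. Of 32851 promoters in the table, 6.75% held the AP-1 motif, 2.98% the interferon element, 7.25% the NF-kB consensus and 2.44% the ETS/PU.1 motif, which none of the 6 windows held. A match describes the letters only.

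The sum of gene UMIs (distinct transcript tags) over the analysed microglia-like cells was 2955143 to 4795386 per hashtag, from 584 to 901 cells each. Of 7903 cells with 1 hashtag that met the filters, 7531 fell in 6 clusters with all 14 microglial markers. Of markers of other myeloid cells, the monocyte genes Ly6c2 and Chil3 and the border macrophage genes Cd163 and Ms4a7 were at 0. The neutrophil list, cells that the Ly6G- gate would remove, had 2 of 8 genes with a UMI and summed to 361 to 439 CPM with oil and 363 to 436 with TAM, mostly Csf3r. The monocyte list as a whole had 8 of 10 genes with a UMI and summed to 5.38 to 13.6 CPM with oil and 7.79 to 18.5 with TAM, where CPM is a gene's count scaled to a library total of 1000000. Macrophages of the brain's borders had 7 of 9 markers with a UMI, summing to 247 to 291 CPM with oil and 265 to 300 with TAM, led by Stab1. Clusters were built without chemokine genes. Cluster 0 (1808 cells) was led by the immediate early genes Fos, Fosb and Egr1, cluster 2 (160 cells) by the interferon-induced Ifit3 and Ifit2, cluster 4 (190 cells) by Spp1, Lgals3 and Lpl, and cluster 5 (137 cells) by the division genes Mki67 and Top2a. Clusters 1 and 3 were the largest (2750 and 2486 cells). Ccl4 and Ccl3 were among the 10 leading genes of cluster 4, and Cxcl10 among those of cluster 2, although neither was used to build them. The immediate early genes moved with the hashtag numbers. Their mean log2 CPM was 6.67 in Oil1, 4.95 in Oil5 and 3.63 in TAM5, and cluster 0 held 74.3% of the cells of Oil1, 15.1% of Oil5 and 0.41% of TAM5. Xist read Oil1, Oil2, TAM1 and TAM2 as male and the other 6 hashtags as female.

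Chemokine transcripts were spread over the cells in different ways. UMIs of Ccl6, Ccl9 and Cxcl16 were spread thinly over many cells, with a median of 1 in positive cells. Free RNA in the droplets was not estimated, and its part in such single UMIs was not tested. Ccl6 had 3985 UMIs in 2477 of the 7531 cells (32.9%), Ccl9 had 3156 in 2048 cells (27.2%) and Cxcl16 had 1724 in 1318 cells (17.5%). Ccl2, Ccl3 and Ccl4 sat in few cells. The 806 UMIs of Ccl2 were in 293 cells (3.89%), the 1299 of Ccl3 in 422 cells (5.6%) and the 3908 of Ccl4 in 601 cells (7.98%). Had the same UMIs been spread by depth alone, 10.1%, 15.7% and 39.8% of cells would have held one. Ccl12 lay between, with 2890 UMIs in 1386 cells (18.4%). Cxcl10 had 149 UMIs in 21 cells. Cxcl2 had no UMI in microglia-like cells, and its single UMI in the whole matrix lay in another cluster. At this depth 0 UMIs allow a level of up to 0.626 CPM in TAM3, the deepest hashtag, and 1.02 CPM in TAM2, the shallowest, by counting error alone.

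The concentration is plainest in the number of cells that held 50% of a gene's UMIs. For Cxcl10 it was 2 cells, for Ccl2 15, for Ccl3 23 and for Ccl4 30. Ccl12 needed 187 cells, Cxcl16 456, Ccl9 566 and Ccl6 673. Cells with 10 or more UMIs of Ccl4 numbered 77 and held 64.8% of its UMIs. The 8 such cells of Ccl6 held 4.14% of its UMIs.

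**Figure D1:**
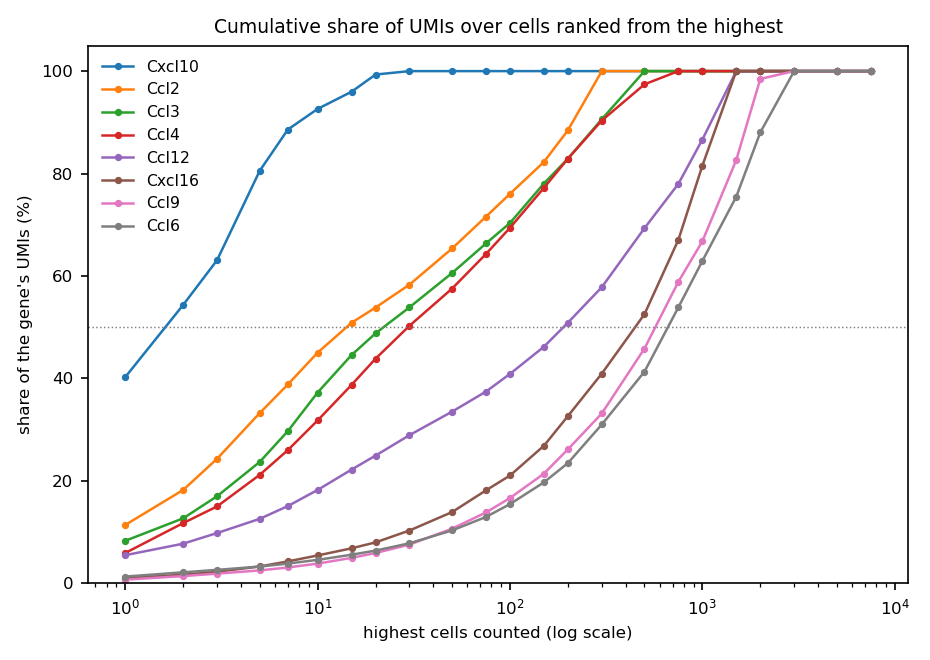
Share of each chemokine's UMIs (vertical axis, percent) held by the highest cells counted (horizontal axis, number of cells, log scale), over 7531 microglia-like cells. Cxcl10, Ccl2, Ccl3 and Ccl4 reach 50% within 2 to 30 cells, Ccl12 at 187, and Cxcl16, Ccl9 and Ccl6 at 456 to 673.

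Whether tamoxifen treatment moved the summed level of these genes was tested over hashtags with edgeR's quasi-likelihood test, adjusted over all 11170 genes that passed a filter on low counts. Ccl2, Ccl3, Ccl4, Ccl6, Ccl9, Ccl12 and Cxcl16 passed that filter. None of the 7 (0 of 7) was past the threshold in either direction, also not with DESeq2, and none had an unadjusted p under 0.05 with either tool. By edgeR 2160 of the 11170 genes had an unadjusted p under 0.05. Of all genes tested, 4.49% were called (180 genes, 1.61%, rose and 321, 2.87%, fell). Scaled levels did not overlap between treatments for 5.32% of all genes and for none of the 7. The median log2 fold was -0.09 over the 7 chemokines and -0.00038 over all genes. Scaled by library size alone, the share of rising among called genes went from 35.9% to 58.6%, the median of all genes was 0.04 and again none of the 7 was called.

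Ccl4 differed most between the means. After scaling, its level was 162.7 CPM in Oil1, 150.1 in Oil2, 132.8 in Oil3, 129.5 in Oil4 and 50.2 in Oil5, against 94.8, 118.5, 129.6, 34.9 and 15.1 CPM in TAM1 to TAM5. Oil5 lay below 3 of the TAM hashtags, so the groups overlapped. The oil mean was 125 ± 44 CPM and the TAM mean 78.6 ± 51 (SD, n = 5 each), with a log2 fold of -0.66 ± 0.38 (SE, adjusted p = 0.373). The 95% interval of the log2 fold ran from -1.47 to 0.15. With the replicate number as a block, a fit given under processing below, Ccl4 was called lower (7.85% of genes called). The labels do not say that same-numbered hashtags belong together, so the fit without the block was kept.

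Ccl3, the genomic neighbour of Ccl4, had 57.4, 40.2, 32.4, 44.7 and 16.5 CPM in Oil1 to Oil5. In TAM1 to TAM5 it had 37.2, 36.9, 42.7, 22.4 and 7.14 CPM. Oil5 was again the lowest oil hashtag and TAM5 the lowest of all 10 (log2 fold -0.36 ± 0.32, adjusted p = 0.605). Ccl2 had 20.7, 23.9, 23.1, 16 and 34.2 CPM with oil and 22.9, 31.2, 21.5, 12.3 and 3.97 CPM with TAM (log2 fold -0.38 ± 0.31, adjusted p = 0.56). Here Oil5 was the highest of all hashtags. A single Oil5 cell held 92 of its 137 Ccl2 UMIs (67.2%). Without TAM5 the log2 folds were -0.13 for Ccl2, -0.12 for Ccl3 and -0.40 for Ccl4, and without Oil1 that of Ccl3 was -0.17 and without Oil5 that of Ccl2 -0.21.

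The ranges of the more widely spread genes overlapped between treatments, and no difference passed the test. Ccl6 ranged from 77.2 to 118.8 CPM with oil and from 90.9 to 149 with TAM (log2 fold 0.11 ± 0.13, 95% interval -0.16 to 0.38, adjusted p = 0.697). Ccl9 ranged from 67.5 to 94.6 and from 68.1 to 92.8 CPM (0.02 ± 0.10, interval -0.18 to 0.23, adjusted p = 0.93). For Cxcl16 the ranges were 35.8 to 59.4 and 32.4 to 52.2 CPM (0.03 ± 0.13, interval -0.25 to 0.31, adjusted p = 0.94). Ccl12 spanned 44.2 to 100.6 CPM with oil and 42.7 to 84.1 with TAM (-0.09 ± 0.18, interval -0.48 to 0.29, adjusted p = 0.845). Cxcl10 was too sparse for the test, with 110 UMIs in oil, 83 of them in Oil3, and 39 in TAM.

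**Figure D2:**
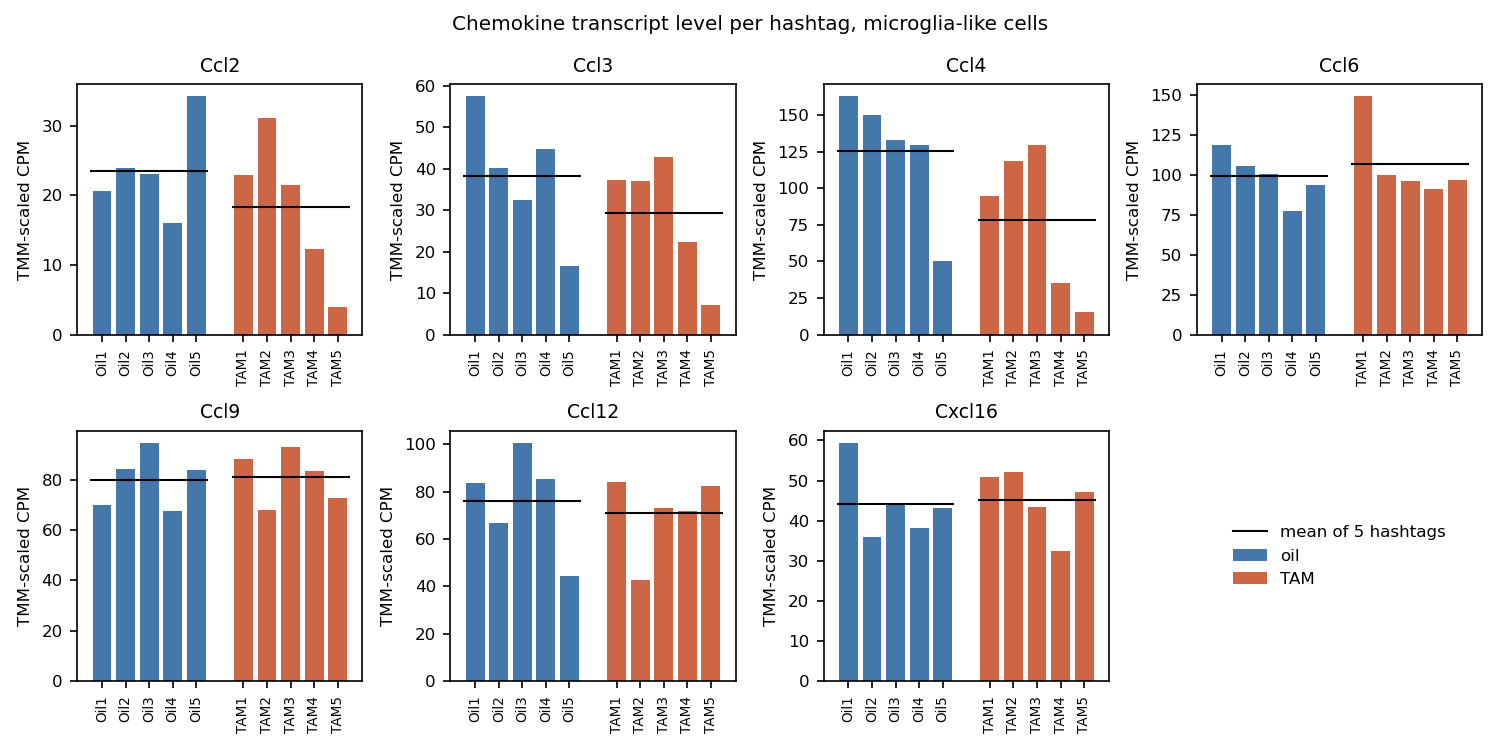
Level of 7 chemokines (vertical axis, TMM-scaled CPM) in each of the 5 oil and 5 TAM hashtags (horizontal axis), with bars for single hashtags and lines for the mean of 5. Ccl4 runs from 162.7 in Oil1 to 15.1 in TAM5 and the groups overlap in every panel.

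A summed level joins 2 quantities, the share of cells with a UMI and the UMIs in those cells, and for Ccl2, Ccl3 and Ccl4 the group means of these lay in opposite orders. Each cell was thinned to 2500 UMIs, which left out 159 shallower cells, 10 to 24 per hashtag. Ccl4 was then detected in 12.2%, 12.4%, 12.35%, 8.35% and 2.54% of cells in Oil1 to Oil5, and in 3.22%, 4.93%, 2.81%, 2.19% and 1.12% in TAM1 to TAM5. All oil hashtags but Oil5 were above every TAM hashtag. The means differed by -6.72 percentage points (9.57% with oil against 2.85%, exact two-sided permutation p = 0.0318, adjusted p = 0.331). Without thinning the means were 12.3% and 3.87%. In Ccl4-positive cells, by contrast, there were 2.56 to 3.79 UMIs per cell with oil and 3.5 to 9.32 with TAM, the lowest TAM value being that of TAM5. Such a mean takes in detected cells alone, and their make-up differed between treatments. Unthinned, cluster 0 held 1206 of the 2332 Ccl4 UMIs with oil and 211 of the 1576 with TAM. Cluster 4 held 670 and 1204 of them.

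Ccl3 was detected in 5.09% ± 2.71 of oil cells and 1.65% ± 0.23 of TAM cells (SD, n = 5, exact permutation p = 0.0476, adjusted p = 0.378), and Oil5, at 1.27%, was below all TAM hashtags. Its UMIs per positive cell were 1.92 ± 0.62 with oil and 3.88 ± 1.89 with TAM. Ccl2 was detected in 3.25% ± 1.23 and 1.11% ± 0.47 of cells (exact permutation p = 0.0159, adjusted p = 0.262), with Oil5 (1.4%) below TAM1 (1.73%). Its UMIs per positive cell were 1.79 ± 0.99 with oil and 3.81 ± 2.59 with TAM. They overlapped, at 1.18 to 3.55 and at 1 (TAM5) to 8 (TAM2). In TAM2 a single cell held 49 of the 92 unthinned Ccl2 UMIs. In the unnamed cluster of 52 cells led by MHC class II genes, at a median of 3684 UMIs against 4919 over all analysed cells, Ccl3 and Ccl4 had no UMI. Unthinned, the means were 8.5% and 2.98% for Ccl3 and 5.73% and 2.07% for Ccl2. The smallest p that the 252 regroupings can give is 0.00794. Over all 11170 genes 0 passed after adjustment, a background of 0%, which p-values of this least size make hard to pass. Among the 7 chemokines 3 had an unadjusted permutation p under 0.05. The share of all genes under that unadjusted p was not counted. The adjusted permutation p of the 3, at 0.262 to 0.378, takes account of how many genes reached p-values as small, and none of the 3 passed. Shares of the treatments were without overlap for 3.41% of all genes and for none of the 7.

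The other shares overlapped between treatments. Ccl6 was detected in 13.3% to 24.2% of cells with oil and 17% to 24.5% with TAM, Ccl9 in 13.1% to 17.1% and 14.6% to 17.9%, and Cxcl16 in 7.94% to 11.6% and 8.62% to 10.6%. Ccl12 was detected in 8.39% to 14.6% and 8.45% to 12.9%. Their UMIs per positive cell also overlapped, with means of 1.27 and 1.275 for Ccl6, 1.25 and 1.22 for Ccl9, and 1.15 and 1.13 for Cxcl16.

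**Figure D3:**
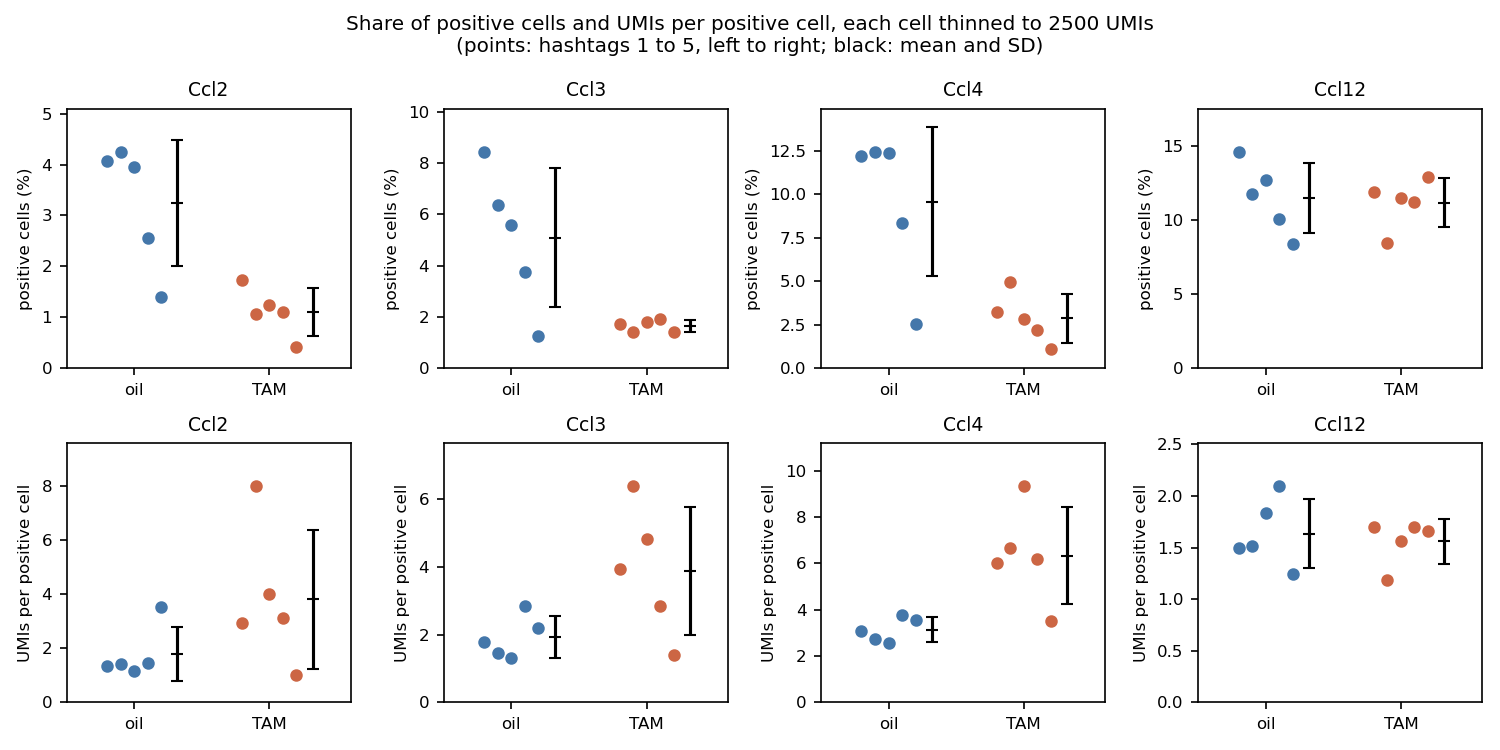
Share of positive cells (upper row, percent) and UMIs per positive cell (lower row) of Ccl2, Ccl3, Ccl4 and Ccl12 at 2500 UMIs per cell, with a point per hashtag (numbers 1 to 5 from left to right) and the mean and SD in black. For Ccl4, 4 oil hashtags at 8.35% to 12.4% lie above all TAM hashtags, while UMIs per positive cell reach 9.32 with TAM.

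Single cells with very many UMIs held much of the sums of Ccl3 and Ccl4. With TAM the single highest cell held 67.6% of the Ccl4 UMIs of TAM4, 56.7% of those of TAM1 and 36.9% of those of TAM3, 32.9% of those of TAM2 and 21.1% of those of TAM5. With oil this share was 6.77% to 27.4%, a range that includes TAM5. For Ccl3 the top cell held 18.5% to 52.2% of the UMIs of a TAM hashtag and 4.86% to 36.4% of those of an oil hashtag, so the groups overlapped. Cells with 10 or more Ccl4 UMIs numbered 53 with oil and 24 with TAM.

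When each cell was counted with at most 3 UMIs per gene, an alternative chosen after these values were seen, Ccl2, Ccl3 and Ccl4 fell with TAM. Positive cells held a median of 1 UMI of Ccl2 and of Ccl3, and 2 of Ccl4. The capped sums thus mostly repeat the shares of positive cells, which had not passed after adjustment. They are no independent test of these genes. Ccl4 then had a mean of 71.9 ± 32 CPM with oil and 17.8 ± 7.9 with TAM (log2 fold -2.02 ± 0.33, edgeR adjusted p = 0.0034). Ccl3 had 35.6 ± 19 and 12.25 ± 2.2 CPM (-1.51 ± 0.33, adjusted p = 0.0136) and Ccl2 had 22.1 ± 10 and 8.13 ± 2.3 CPM (-1.41 ± 0.31, adjusted p = 0.0142). Of 11149 genes tested in this way, 4.34% were called. Ccl6, Ccl9, Ccl12 and Cxcl16 had log2 folds of 0.01 to 0.13 and were not called. Leaving out any 1 hashtag kept the calls of Ccl3 and Ccl4. The call of Ccl2 was lost without Oil3 (adjusted p = 0.0592).

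The immediate early level went down along the hashtag numbers apart from TAM2. Its mean log2 CPM was 4.95 to 6.67 in oil and 3.63 to 5 in TAM hashtags, so it nearly separated the treatments. Fits that hold it cannot tell it from treatment, and a call lost in them names no cause. With that level as covariate the capped log2 folds were -0.57 for Ccl4, 0.15 for Ccl3 and -0.17 for Ccl2, and with hashtag order as a covariate -0.23, 0.54 and 0.18. None of the 3 was called in either fit, whose backgrounds were 0.78% and 0.466% of genes. Without Oil1, Oil2 and Oil3 they were -1.23, -0.49 and -0.52, again with no call (background 0.0259%). That fit kept Oil4 and Oil5 as the only oil hashtags. Without the cells of cluster 0 Ccl4 was called alone (-1.47 ± 0.29, adjusted p = 0.015, background 1.87%), with -1.02 for Ccl3 (adjusted p = 0.0734) and -0.87 for Ccl2 (adjusted p = 0.104). Ccl6 rose with TAM in the fit with order (0.65 ± 0.14, adjusted p = 0.0335).

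The uncapped sums turned with the same settings. With the immediate early level as covariate (0.627% of genes called) the log2 folds were 0.07 for Ccl2, 0.86 for Ccl3 and 0.80 for Ccl4, and none of the 7 was called. With order (0.331% called) they were 0.27, 1.35 and 1.345, and Ccl6 rose (0.76 ± 0.16, adjusted p = 0.0411). Without Oil1, Oil2 and Oil3 they were -0.47, -0.04 and -0.18 (0.0604% called), and without the cells of cluster 0 -0.49, -0.36 and -0.79 (1.41% called), with no call among the 7 in either. In the 4 male hashtags alone Ccl4 fell (-0.56 ± 0.11, adjusted p = 0.0152, 1.12% called). In a stricter hashtag assignment, which left 1 cell in Oil5 and 4 in Oil4, Ccl3 and Ccl12 rose (1.93 and 0.75) with 1.28% of genes called. The order is that in which the hashtags are listed, and the labels do not say in which order they were processed. It runs through oil before TAM, so treatment and order cannot be told apart in full. The immediate early level nearly separates the treatments too, so the fits with it cannot tell that level from treatment.

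Within clusters 1 and 3, those with at least 20 cells in each hashtag, Ccl4 fell with TAM. In cluster 1 it had 22, 56.4, 38.8, 61.6 and 4.57 CPM of total UMIs in Oil1 to Oil5 and 5.76, 15.9, 5.87, 4.71 and 8.51 in TAM1 to TAM5 (log2 fold -2.19 ± 0.42, adjusted p = 0.0191, 0.217% of genes called). Oil5 was the lowest of all 10 hashtags there. In cluster 3 the values were 56.6, 44.3, 53.6, 26.4 and 10.6 CPM with oil and 9.99, 14.8, 10.3, 4.76 and 0.972 with TAM (-1.97 ± 0.38, adjusted p = 0.00981, 0.377% called). These levels rest on 7 to 80 and 1 to 58 UMIs per hashtag. In cluster 1, 3 oil cells with 10 or more UMIs held 71 of the 155 oil UMIs, and 1 such TAM cell held 11 of 82. In cluster 3, 2 such oil cells held 20 of 153, and no TAM cell had 10 or more. Ccl6, Ccl9, Ccl12 and Cxcl16 were not called in either cluster, and Ccl12 missed the threshold in cluster 1 with a log2 fold of 0.59 (adjusted p = 0.0554). Immediate early genes fell in the same clusters (3 of 18 measured in cluster 1 and 9 of 15 in cluster 3), and with their level in the fit the log2 folds of Ccl4 were -1.46 (adjusted p = 0.233) and -0.52 (adjusted p = 0.806). The call in cluster 1 was also lost without Oil2, Oil3, Oil4, TAM3, TAM4 or TAM5 (adjusted p up to 0.181), and that in cluster 3 without Oil3, TAM3 or TAM5 (up to 0.154).

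Levels differed far more between cell states than between treatments. They are given as a description, pooled over hashtags, with exact Poisson 95% intervals that cover counting error only. Ccl4 stood at 1649 CPM (1575 to 1725) in the Spp1 and Lgals3 cluster 4, at 146 CPM in the immediate early cluster 0, at 100 CPM in clusters 2 and 5, and at 15.3 and 18.8 CPM in clusters 1 and 3. Cluster 4 was 2.52% of the microglia-like cells and held 48% of the Ccl4 UMIs, and cluster 0 was 24% of cells and held 36.3%. Over hashtags the cluster 4 level was 1533 ± 922 CPM (SD, n = 10), from 175 in TAM5 to 2919 in Oil4. Every hashtag had a higher Ccl4 level in cluster 4 than in clusters 1 and 3.

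Ccl3 had a similar order. It reached 551 CPM (509 to 596) in cluster 4, with 48.2% of its UMIs, then 43.2 CPM in cluster 0, 37.4 in cluster 5, 11.6 in cluster 2, and 7.47 and 8.81 in clusters 1 and 3. Over hashtags its level in cluster 4 was 501 ± 362 CPM (SD, n = 10). Ccl2 stood at 201 CPM (175 to 228) in cluster 4, 134 in cluster 5, 70.9 in cluster 2, 29.45 in cluster 0, 2.9 in cluster 1 and 6.03 in cluster 3. The level in cluster 5 comes mostly from 1 cell: 92 of its 122 Ccl2 UMIs were in an Oil5 cell. That cell had 13504 UMIs, deeper than 99.95% of microglia-like cells. It also held 24 of the 34 Ccl3 UMIs and 52 of the 91 Ccl4 UMIs of cluster 5. Droplets holding 2 cells of the same hashtag were not removed, and whether this cell is one was not tested.

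Ccl12 had its highest level in the interferon cluster 2, at 848 CPM (787 to 912), with 25.2% of its UMIs in 2.12% of cells. There 40.9% of cells were positive after thinning, against 8.09% in cluster 1 and 10.4% in cluster 3. Over hashtags it ran from 81.6 CPM in TAM2 and 91.4 in Oil5 to 1975 in Oil3. Oil1 to Oil4 were all above 1000 CPM and all TAM hashtags below, but only 6 to 26 cells stood behind each value and no test was made. In Oil4 a single cell held 159 of the 181 UMIs. Cxcl10 was also highest in cluster 2, at 119 CPM (96.7 to 144), with 68.5% of its UMIs. Of its UMIs there, 82 came from 3 cells of Oil3.

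Cluster 4 also had the highest levels of Ccl6 (356 CPM), Ccl9 (314) and Cxcl16 (220) among the microglia-like clusters, with 40.0%, 40.0% and 34.1% of thinned cells positive. In the other microglia-like clusters levels were lower, at 77.9 to 101.8 CPM for Ccl6, 50.5 to 98.8 for Ccl9 and 34.3 to 83.7 for Cxcl16. The intervals of the lowest and the highest of these clusters did not overlap for Ccl9 (50.5 CPM in cluster 5, 98.8 in cluster 2) and Cxcl16 (34.3 in cluster 1, 83.7 in cluster 2). A cluster of 52 cells led by MHC class II genes, which stayed unnamed (median of 3684 UMIs), had 400 CPM of Ccl6 (319 to 495) but no UMI of Ccl3 or Ccl4. A count of 0 in 52 cells allows a share of cells with a UMI of up to 5.77%, and says less of cells that express the gene. The 320 cells of the other unnamed cluster had a median of 1500 UMIs and 15.2 CPM of Ccl6.

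**Figure D4:**
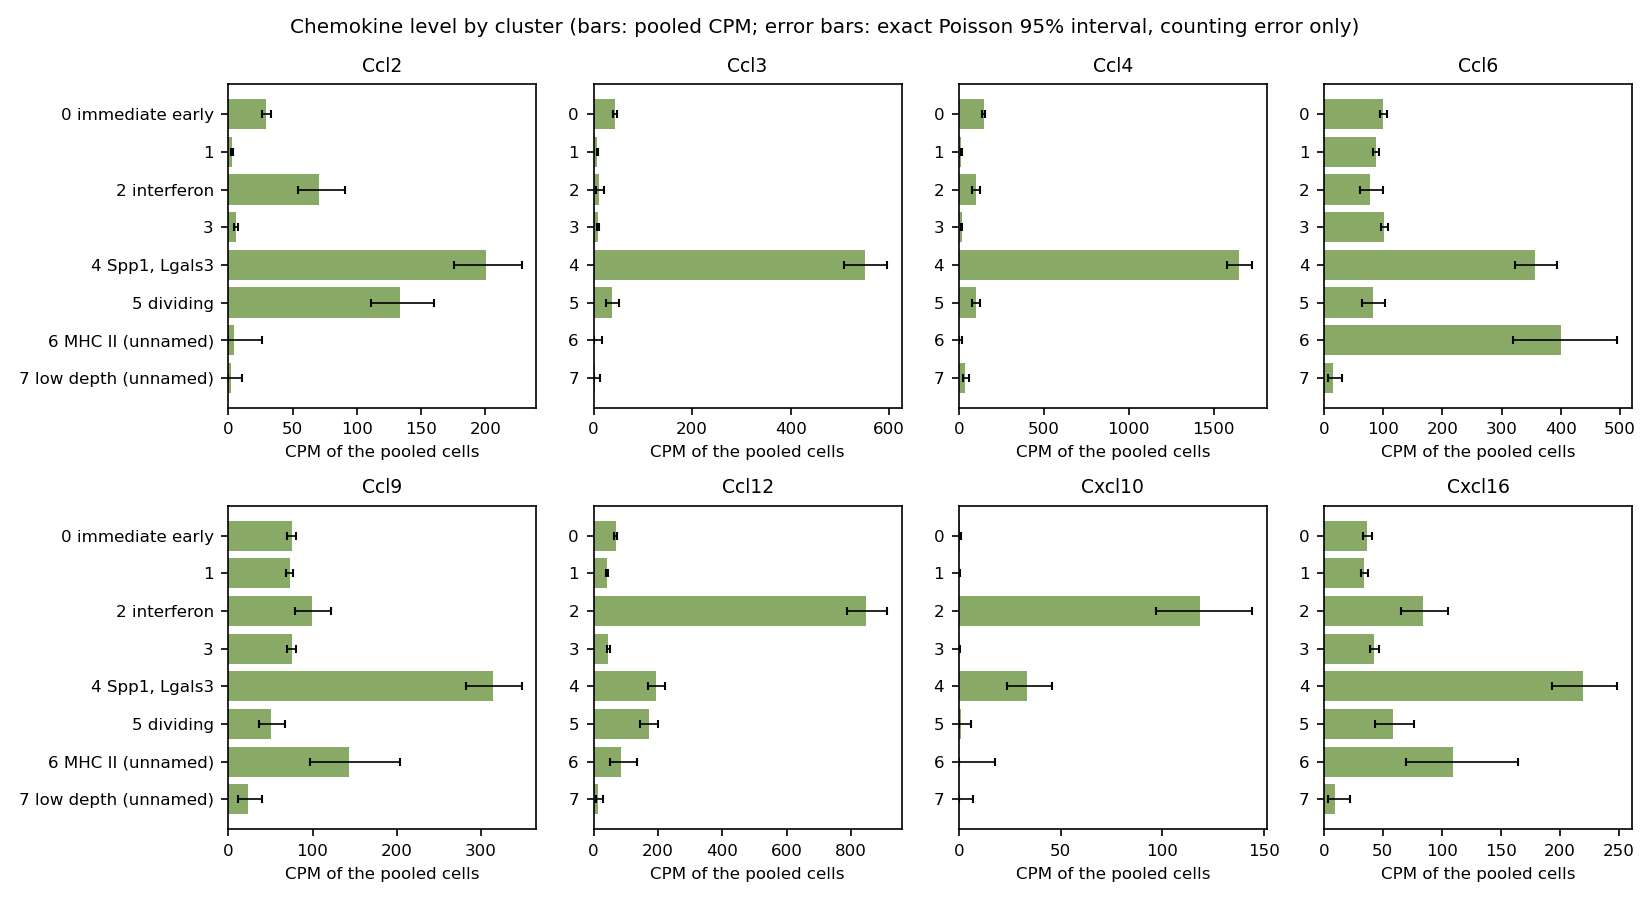
Level of 8 chemokines (horizontal axis, CPM of pooled cells) in each of 8 clusters (vertical axis), with exact Poisson 95% intervals as error bars. Ccl2, Ccl3, Ccl4, Ccl9 and Cxcl16 are highest in cluster 4, Ccl12 and Cxcl10 in cluster 2, and Ccl6 at 400 in cluster 6 and 356 in cluster 4.

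Ccl2, Ccl3 and Ccl4 coincided in cells more often than independence gives, although most positive cells held 1 of a pair without the other. After thinning, 92 cells held both Ccl3 and Ccl4 where independence within hashtags would give 21.9, a ratio of 4.2, and the ratio was 2.48 to 4.28 in the 4 hashtags with at least 2 expected. Ccl4 was detected in 37.9% of Ccl3-positive and 4.99% of Ccl3-negative cells. The ratio was 3.91 for Ccl2 with Ccl3 and 3.9 for Ccl2 with Ccl4, and 18.2% and 34.0% of Ccl2-positive cells held Ccl3 and Ccl4. By hashtag, Ccl2 with Ccl3 was at 1.32 in the 1 hashtag with at least 2 expected, and Ccl2 with Ccl4 at 1.52 to 3.1 in 3. Without thinning the 3 ratios were 3.33, 2.51 and 2.75. How far this follows the clusters was not tested. Within cluster 0 the ratio of Ccl3 and Ccl4 was 2.3 (44 cells against 19.1), and within cluster 4 it was 1.88 (33 against 17.5). In clusters 1, 2, 3 and 5 it was 5.235, 3.32, 3.2 and 4.87, on 4, 2, 4 and 5 shared cells. A ratio has less room to rise where more cells are positive, as in cluster 4. Ccl2 with Ccl3 was at 1.57 in cluster 0 and 2.7 in cluster 4, with 0 cells in clusters 1 and 3 (0.22 and 0.31 expected). In clusters 2 and 5 that pair was at 4.73 and 5.2, on 2 shared cells each. Ccl2 with Ccl4 was at 1.86 in cluster 0 and 2.38 in cluster 4. In clusters 1, 2, 3 and 5 it was at 7.715, 4.875, 4.31 and 5.2, on 3, 5, 3 and 2 shared cells.

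Pairs of the widely spread genes were near 1. Ccl6 and Ccl9, neighbours in the genome, shared 267 cells against 231 (1.16), and ratios of Ccl6, Ccl9 and Cxcl16 with one another were 1.09 to 1.17. Ccl2 and Ccl12 shared 42 cells against 18.9 (2.23). Ccl12 and Cxcl10 shared 10 cells against 1.79 (5.58), so 71.4% of the 14 thinned cells with Cxcl10 also held Ccl12. Cxcl10 also met Cxcl16 in 9 cells (1.37 expected) and Ccl2 in 4 (0.43 expected). Within the interferon cluster all 6 Cxcl10-positive cells held Ccl12 (3.52 expected).

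**Figure D5:**
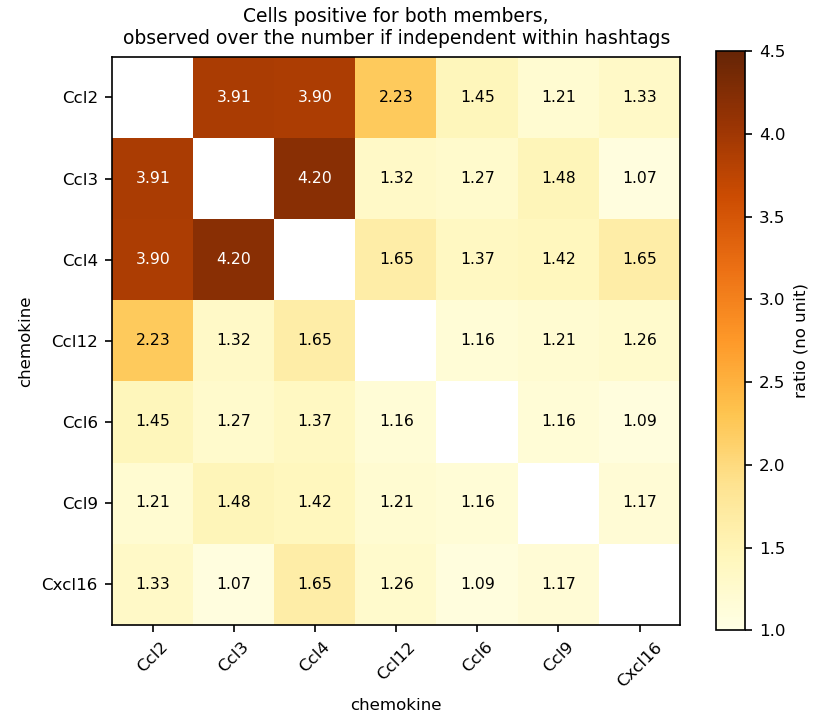
Number of cells positive for both chemokines, divided by the number if they were independent within hashtags (colour and figures, no unit), for pairs of 7 chemokines at 2500 UMIs per cell. Ccl2, Ccl3 and Ccl4 form a block at 3.9 to 4.2, Ccl2 with Ccl12 is at 2.23, and the remaining pairs lie between 1.07 and 1.65.

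The highest cells show the same grouping. The top Ccl4 cell, from TAM3 in cluster 4, held 232 UMIs of Ccl4, 108 of Ccl3 and 22 of Ccl2 among 7732. Next came a TAM1 cell of cluster 4 with 228 of Ccl4, 57 of Ccl3, 55 of Ccl2 and 65 of Ccl12. Of 18 cells with 10 or more Ccl3 UMIs, 17 also had 10 or more of Ccl4, and 8 of 12 such Ccl2 cells did. The top Ccl12 cell, from Oil4 in cluster 2, had 159 UMIs of Ccl12, 11 of Ccl2 and none of Ccl3 or Ccl4. A TAM1 cell of cluster 4 was highest for both Ccl6 (53 UMIs) and Ccl9 (23 UMIs). High cells of Ccl4 with oil were in cluster 0 (29 of 53) and cluster 4 (15), and with TAM in cluster 4 (17 of 24) and cluster 0 (5). Cluster 0 held 1665 oil and 143 TAM cells.

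The genes most like each chemokine were sought by Pearson correlation of log-normalised values over 7531 cells, with hashtag means removed, among 11402 genes. Cells share depth and library, and the values are a description. Ccl3 was most like Ccl4 (r = 0.44), then Ccl2 (0.26) and Csf1 (0.21). Ccl4 was also like Atf3 (0.23), a stress-induced transcription factor. Ccl2 was most like Gm17268 (0.37), then Ccl4 (0.30) and the immediate early gene Egr2 (0.27). Gm17268 (chr11:82028224-82038562, minus strand) is the gene that covers Ccl2 on the other strand, and it fell with TAM (40.5 ± 20 against 7.38 ± 5.6 CPM, log2 fold -2.43, adjusted p = 0.0064). It was also among the 10 leading genes of the immediate early cluster 0, which held 1665 oil and 143 TAM cells. Its fold with order or the immediate early level in the fit was not examined. Ccl12 was most like the interferon-induced Ifit3 (0.27), Ifit2 (0.26) and Slfn5 (0.23). Ccl6, Ccl9 and Cxcl16 had no gene at 0.2 or above.

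Sex was compared with treatment as a covariate. Ccl6 was lower in female than in male hashtags by a log2 fold of -0.36 ± 0.09 (edgeR adjusted p = 0.0273, lower in both treatments), with means of 112 and 124.5 CPM in the male and 90.3 and 94.6 CPM in the female oil and TAM hashtags. It was the single chemokine of 7 called, against 2.3% of all genes. The call was lost without Oil1, Oil4, TAM1, TAM3 or TAM4, up to an adjusted p of 0.219 without TAM1. Male hashtags had the lowest numbers of each treatment, and 17 of 24 immediate early genes were lower in the female ones, so sex, order and immediate early level cannot be told apart here. A difference in the effect of TAM between the sexes was not called for any of the 7 chemokines (interaction, 0.0179% of genes called). With so few hashtags per sex and treatment, a missing call does not show equal effects. Ccl2 alone had an unadjusted p under 0.05, with a difference of -1.16 in log2 fold (adjusted p = 0.851).

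Among receptor genes, Ccrl2, an atypical receptor that binds chemerin, fell with TAM. It had 13 ± 2.5 CPM with oil and 8.12 ± 1.1 with TAM (log2 fold -0.66 ± 0.16, edgeR adjusted p = 0.0284). With the immediate early level in the fit it was not called (-0.11, adjusted p = 0.944), nor without Oil1, Oil2 and Oil3 (-0.37, adjusted p = 0.51). With order its log2 fold turned to 0.02. Cx3cr1, the locus of the Cre, had 2174 ± 89 and 2038 ± 59 CPM (-0.09, adjusted p = 0.154), and Ccr2 had 4.71 ± 1.7 and 3.1 ± 1.7 (adjusted p = 0.427). The level of Cx3cr1 cannot separate its 2 alleles.

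Of 28 further chemokine genes listed, 4 passed the count filter, and none passed the test by edgeR or DESeq2 or had an unadjusted p under 0.05. Ccl25 was at 33 ± 3.6 CPM with oil and 30.8 ± 3.1 with TAM, Ccl24 at 9.07 ± 3 and 7.44 ± 2.8, Cxcl17 at 4.97 ± 0.66 and 3.83 ± 1.4, and Ccl5 at 2.8 ± 1.8 and 3.43 ± 3. Cxcl9, an interferon gamma-induced ligand of Cxcr3 and below the count filter, had 0 UMIs with oil and 38 with TAM. How many cells and hashtags held these 38 UMIs was not examined, and the difference was not tested.

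Among 17 measured NF-kB genes and cytokines 6 fell with TAM and none rose (median log2 fold -0.30), where 2.87% of all genes fell. Nfkbid fell from 24.4 ± 8.4 to 9.65 ± 1.2 CPM (-1.34 ± 0.21, adjusted p = 0.0042) and Nfkbiz from 80.1 ± 38 to 27.7 ± 11 (-1.51 ± 0.28, adjusted p = 0.007), both atypical IkB proteins of the nucleus. The cytokines Il1a (-0.50, adjusted p = 0.0178) and Tnf (-1.10, adjusted p = 0.0215) fell as well. Of 24 immediate early genes 17 fell (median -1.54), among them Egr1 (-3.16, adjusted p = 0.0039), Ier2 (-2.70, adjusted p = 0.0033), Zfp36 (-1.49, adjusted p = 0.0044), which encodes a protein that destabilises cytokine mRNAs, and Ier5 (-0.95, adjusted p = 0.0035). With the immediate early level or order in the fit, or without Oil1, Oil2 and Oil3, no fall on the NF-kB list was called. No fall on the immediate early list was called in these fits either, and with order Klf2 rose. That level is the mean of these same 24 genes, so the fit with it cannot show whether they fell. Without the cells of cluster 0, Nfkbid and Tnf (2 of 16 NF-kB genes measured) were still called lower. So were 8 of 21 immediate early genes, where 1.41% of all genes were called. Of 11 interferon response genes none was called, with Ifitm3 nearest (0.64 ± 0.18, adjusted p = 0.0608), and 1 had an unadjusted p under 0.05 by edgeR and by DESeq2. Scaling by library size alone called Ifitm3.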

How the data were processed

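Single cells from 10 hashtagged groups of sorted microglia (5 oil, 5 TAM) were sequenced as 1 gene expression and 1 hashtag library with 3′ v3.1 chemistry. The deposited values are UMI counts per gene and barcode, which the authors obtained from Cell Ranger (7.0.0, per the file headers) on mm10 per the submitters' processing notes. For the gene annotation, the rule for calling barcodes and the use of strand, nothing is given in the sources used here. Strand handling bears on genes that overlap another gene. The chemokines and gene lists were chosen with earlier results of these data known.

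From the counts, Seurat 5.3.0 (HTODemux, quantile 0.99) assigned 8055 of 9975 barcodes to 1 hashtag, 1737 to several and 183 to none. Cells needed 500 genes, 1000 UMIs and at most 10% mitochondrial UMIs, which left 7903. Droplets with 2 cells of the same hashtag were not removed and no expression-based doublet caller was run. Scanpy 1.11.5 (2000 variable genes without chemokine and sex-linked genes, 30 components, 15 neighbours, Leiden resolution 0.5) gave 8 clusters, and the 6 microglia-like ones hold 7531 cells.

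UMIs were summed per hashtag and tested with edgeR 4.0.16 (quasi-likelihood, TMM scaling, low-count filter), adjusted by Benjamini-Hochberg over all genes at a threshold of 0.05, with DESeq2 1.42.0 as an alternative. Tested on simulated counts, the edgeR script was checked for recovery of known changes. The SE of a log2 fold was taken from the fold and its F statistic. Shares of positive cells were compared by exact two-sided permutation tests after thinning to 2500 UMIs, scipy 1.17.1. Intervals and limits for counts of 0 (3 counts, 95% intervals) cover counting error only. Alternatives changed the scaling, filter, covariates, hashtags, cells and depth. A cap of 3 UMIs per cell and gene with its alternatives, the covariates and left-out hashtags within clusters, and the hashtags left out of the comparison by sex, were added after values were seen. Genes outside the chemokines were named by the smallest p within each list, at most 4 a list, or by the 3 highest correlations with a chemokine at 0.2 or above. 4 further names (Gm17268, Cxcl9, Ccr6 and Ccr1) were chosen after their values were seen. 1 receptor gene's result is not reported here.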

Additional observations from a re-analysis of the deposited data

Results flagged for a closer look

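In 50 groups of 5 hashtags checked for a value far from the others, 3 had one, and chance gives about 1 in 20. Among the 50, the groups of Cxcl2 and of Cxcl10 UMIs per positive cell held constant or missing values and could not be flagged. Ccl2 UMIs per positive cell, thinned, stood at 3.545 in Oil5 against 1.18 to 1.47 in the other oil hashtags. 1 cell held 92 of the 137 Ccl2 UMIs of that hashtag. Ccl6 was at 149.0 CPM in TAM1, and the other TAM hashtags were at 90.9 to 99.9 CPM. TAM1 is a male hashtag and holds the cell with most Ccl6 UMIs (53), which is 8.39% of its total. Ccl12 UMIs per positive cell, thinned, were 1.188 in TAM2 against 1.56 to 1.70 in the other TAM hashtags.

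Barcodes that were not analysed (several hashtags, no hashtag, or under the filters) held Cxcl10 at 13.77 CPM, against 3.76 in the analysed cells. These 168 UMIs lay in 7 of 2072 barcodes, and a single barcode held 79 of them.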

How the results depend on the processing

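The count of genes that rose with TAM (180) was 362 with scaling by library size alone, 352 with no low-count filter, 338 with sex as covariate, 8 in male hashtags alone, 27 with order and 44 with the immediate early level as covariate, 2 without Oil1, Oil2 and Oil3, 59 without the immediate early cluster, 9 in the largest cluster alone, 32 under stricter assignment, and 74 to 243 when 1 hashtag was left out. The count that fell (321) was 493, 534 (sex), 116, 10, 26, 5, 95, 12 and 44 in the same order from no filter on, and 175 to 407. Replicate numbers were not taken to pair the hashtags, since correlations of same-numbered hashtags were 0.34, 0.18, 0.06, 0.13 and 0.12, not all above 0.1. The best match was the own number for 3 of 5, and sex goes with the number too. With the replicate block 343 genes rose and 534 fell, and 1 chemokine, Ccl4, fell (-0.76, adjusted p = 0.0077, 7.85% of genes called). It changed no other chemokine's call.

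Chemokines that rose numbered 1 with order and 2 under stricter assignment, and those that fell 1 in males, 1 in the largest cluster and 3 with the cap. Within cluster 1 and within cluster 3 the number that fell was 0 in the fit with order, likewise 0 with the immediate early level, and 0 to 2 when 1 hashtag was left out. Under the cap it was 0 with order, 0 with the immediate early level, 0 without Oil1, Oil2 and Oil3, 1 without the immediate early cluster, and 2 to 3 when 1 hashtag was left out.

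Log2 folds changed sign for Ccl2 in males (0.26), with order (0.27) and with the immediate early level (0.075). Those of Ccl3 did with order (1.35), the immediate early level (0.86) and stricter assignment (1.93), and those of Ccl4 with order (1.345) and the immediate early level (0.80). Ccl9 went to -0.030 with the immediate early level and -0.056 without its cluster. Ccl12 went to 0.11 with order, 0.16 without Oil1, Oil2 and Oil3, 0.59 in the largest cluster, 0.75 under stricter assignment and 0.038 with the cap. Cxcl16 went to -0.028 in females, -0.13 without the immediate early cluster and -0.015 in the largest cluster. With 1 hashtag left out, Ccl2 ran from -0.61 to -0.13, Ccl3 from -0.56 to -0.12, Ccl4 from -0.95 to -0.40, Ccl6 from -0.041 to 0.19, Ccl9 from -0.033 to 0.10, Ccl12 from -0.24 to 0.036 and Cxcl16 from -0.030 to 0.15. With order Ccl4 in cluster 3 was 0.37, and with the cap Ccl2 was 0.18 and Ccl3 0.54 (0.15 with the immediate early level).

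Calls of shares numbered 0 in all 12 alternatives, which shows no stability, as the smallest possible p leaves little room for a call. Their differences changed sign for Ccl12 without thinning (0.684 points), at 1500 UMIs (0.359) and with 1 hashtag left out (-1.10 to 0.452), and so did Ccl6 (-0.241 to 2.49) and Cxcl16 (-0.146 to 0.768). Ratios of coexpression without thinning were 2.51 for Ccl2 with Ccl3 and 2.75 for Ccl2 with Ccl4. The cause of these changes was not tested.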

Other observations

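2 chemokine receptor genes, chosen after their values were seen, differed between hashtags of the same treatment. Ccr6, the receptor of Ccl20, stood at 171.9 CPM in Oil1, 203.0 in Oil4, 165.9 in TAM1, 146.0 in TAM2 and 183.1 in TAM5, and between 1.65 and 6.96 CPM in the other 5 hashtags. Ccr1, the receptor of Ccl6 and Ccl9, was at 40.5 and 29.2 CPM in the male and 15.7 to 19.3 CPM in the female oil hashtags, and at 41.2 and 42.7 in the male and 9.04 to 26.5 CPM in the female TAM hashtags.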
